A study of Mus musculus with 45 samples.

Results

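The genes described here are *Lacc1*, which encodes FAMIN, and 8 enzymes that salvage or break down purines, namely *Ada*, *Mtap*, *Hprt*, *Adk*, *Aprt*, *Dck*, *Gda* and *Xdh*. They were chosen by name from the gene symbols of the CPM table and matched through their Ensembl identifiers to the count table, where all 9 were found among 29307 genes. All 9 passed the filter on low counts, which left 12905 genes. Bone marrow-derived macrophages of C57BL/6N mice aged 6 to 10 weeks had been cultured for 6 days and sequenced as poly(A) RNA in 45 libraries. The mice carried engineered germline *Famin* alleles, *Famin* p.254I, *Famin* p.254V or *Famin* p.284R, with 5 mice of each. Macrophages of each mouse were left unstimulated (M0), exposed to IFN-γ and LPS (M1) or exposed to IL-4 (M2), which gave 9 groups of 5 libraries. The animals were bred from heterozygous parents and littermates were used, and the 5 mice of a genotype are the independent units. No mouse without an engineered allele is part of the comparison, and each culture is a bulk population in which fewer cells of a type and less RNA per cell cannot be told apart.

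Purine nucleosides released by nucleic acid and cofactor turnover are either rebuilt into nucleotides or oxidized to urate. FAMIN is a laccase-domain protein that the study describes as a single enzyme able to deaminate adenosine and to split adenosine, inosine, guanosine and methylthioadenosine by phosphorolysis. *Ada* deaminates adenosine, purine nucleoside phosphorylase splits inosine and guanosine, and *Mtap* splits methylthioadenosine. The bases then feed *Hprt*, which joins hypoxanthine or guanine to phosphoribosyl pyrophosphate, and *Aprt*, which does the same with adenine. *Adk* and *Dck* phosphorylate adenosine and deoxynucleosides, whereas *Gda* deaminates guanine to xanthine and *Xdh* oxidizes hypoxanthine and xanthine toward urate. Macrophages are known for remodeling their metabolism when IFN-γ and LPS or IL-4 polarize them.

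*Lacc1* (ENSMUSG00000044350) lies on the minus strand of mm10 at chr14:77024200-77036904. The alleles are named for codons 254 and 284, and both fall in exon 5 of 8 of its transcript, whose annotated coding sequence has 430 codons (GENCODE). Codon 254 is at chr14:77033331-77033333 and reads GTG (valine) in the reference mouse genome. Codon 284 is at chr14:77033241-77033243 and reads TGT (cysteine). The coding stretch from codon 250 to codon 288, at chr14:77033229-77033345, is shown because it holds the positions that define the genotypes, with those codons in capitals. The letters are the reference, as the deposited counts do not tell which base a read carried.
Lacc1 codons 250 to 288: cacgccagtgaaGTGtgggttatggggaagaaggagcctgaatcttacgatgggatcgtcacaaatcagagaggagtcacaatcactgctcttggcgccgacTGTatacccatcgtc

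Total counts per library ranged from 17239009 to 43740283, so that 1 CPM is between 17.2 and 43.7 reads. Levels below are CPM scaled by TMM, and p-values come from edgeR (quasi-likelihood F-test, adjusted by Benjamini-Hochberg over all 12905 genes), with genes called at an adjusted p under 0.05. The summed macrophage markers were high in every library (5288 to 11350 CPM over 6 genes), and no marker of the other cell types was at 0 in all libraries of a polarization. The summed markers of T cells (3 genes) and B cells (3 genes) did not exceed 1.24 and 0.466 CPM. Neutrophil markers (4 genes) reached 197 CPM, fibroblast markers (3 genes) 83.9 CPM and dendritic cell markers (3 genes) 12.4 CPM. Of the 4 M1 markers, *Il12b* stayed at or below 0.190 CPM in M1. One M0 library, that of *Famin* p.254I replicate 4, stood apart, with *Fcgr1* at 1098 CPM against at most 463 CPM in the other M0 libraries, a level otherwise seen in M1 (1064 to 1387 CPM), although *Cxcl9* was at 1.45 CPM there against a median of 3262 CPM in M1. The M2 library of the same mouse had *Fcgr1* at 153 CPM against at most 55.1 CPM in the others. The M1 library of *Famin* p.254I replicate 5 held *Arg1* at 40.8 CPM and *Retnla* at 49.1 CPM, against at most 0.912 and 0.249 CPM in the other M1 libraries and medians of 1030 and 3279 CPM in M2. Member results that the first library changed in their call, or moved by over 1.5 times, are given with and without it where they are described.

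Most of these genes differed between polarizations, as did most of all genes tested. In M1, 6 of the 9 members were called higher than in M0 and 2 lower, and the largest increases were in *Ada* (4.98-fold), *Lacc1* (3.01-fold), *Dck* (2.75-fold) and *Gda* (2.42-fold). In M2, 2 members were higher and 5 lower than in M0, and *Gda* alone rose 7.99-fold. These counts stand beside a background in which most genes were called, 77.3% of all genes in M1 against M0 (37% higher and 40.3% lower) and 76.4% in M2 against M0 (36.8% higher and 39.6% lower). The median log2 fold change of the members was 0.42 in M1 and -0.16 in M2, beside -0.03 and -0.03 over all genes tested. Of the variance of log2 CPM over the 45 libraries, polarization took 97.0% in *Ada*, 92.4% in *Gda*, 90.2% in *Dck*, 86.5% in *Hprt*, 76.9% in *Lacc1*, 73.4% in *Adk* and 63.4% in *Mtap*, but 49.8% in *Xdh* and 22.9% in *Aprt*. The same share was not computed for the other genes.

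**Figure D1:**
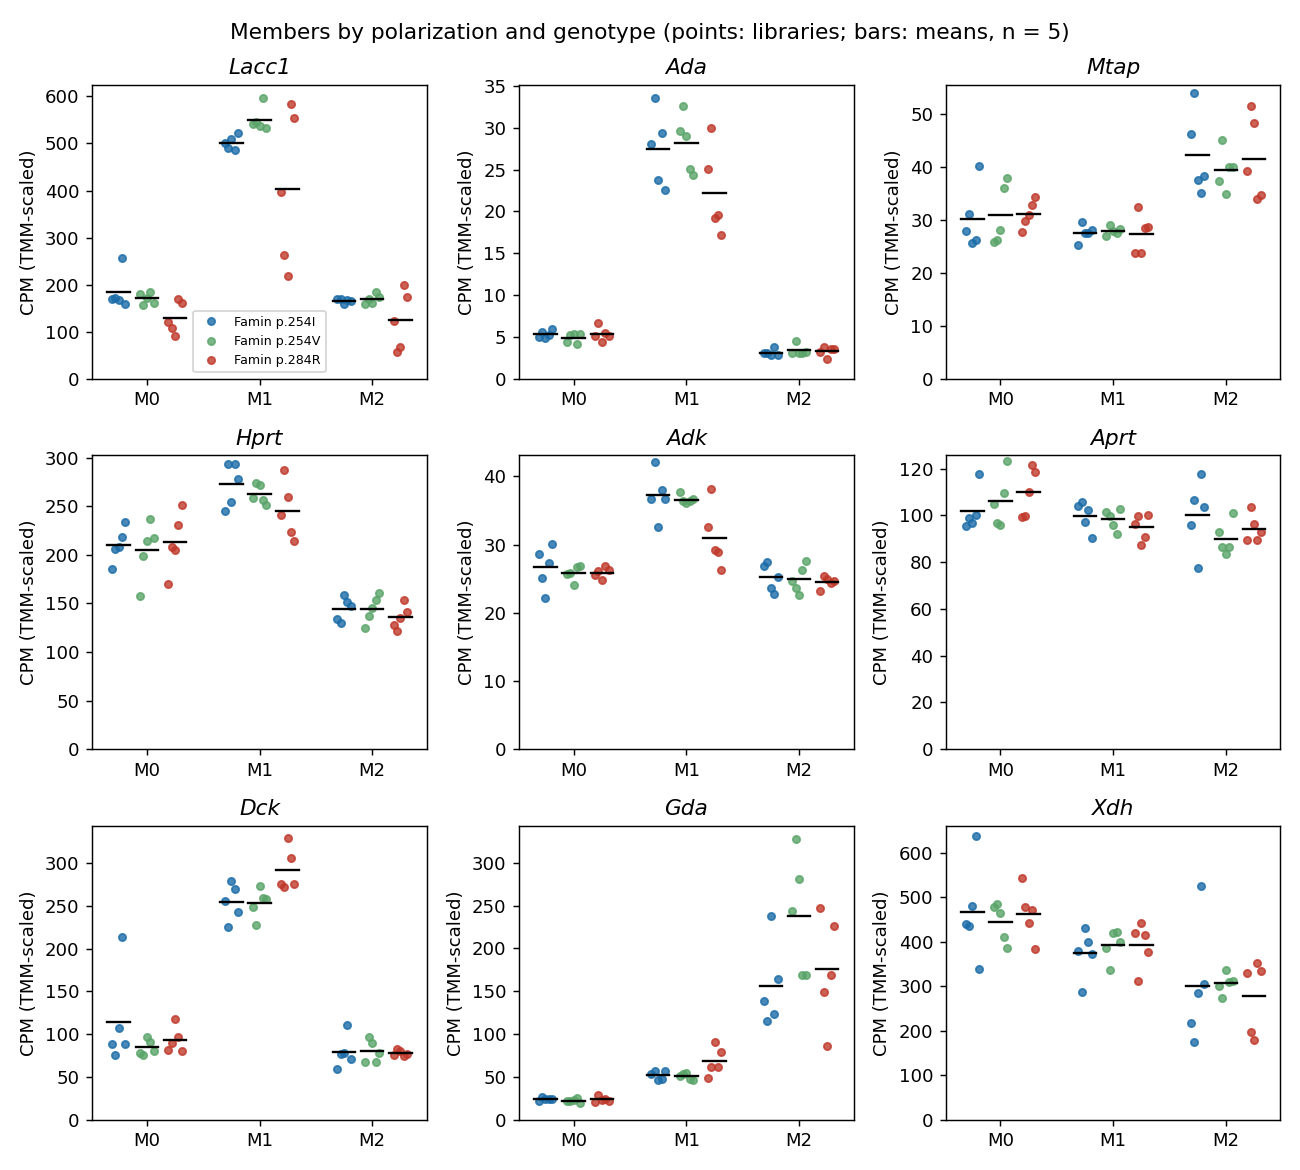
Each panel plots 1 gene, with CPM (TMM-scaled, linear axis from 0) against polarization, colored by genotype, with 1 point per library and a bar at the mean of the 5 libraries of a group. *Ada*, *Dck* and *Lacc1* stand highest in M1 and *Gda* in M2, and the low *Lacc1* points all belong to *Famin* p.284R.

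*Lacc1* rose in M1 and had nearly the same level in M0 and M2. In *Famin* p.254I, replicates 1 to 5 had 170, 172, 166, 257 and 159 CPM in M0, and 501, 490, 509, 486 and 523 CPM in M1. In M2 they had 169, 169, 159, 167 and 165 CPM. Leaving aside the M0 library of replicate 4, which was the one described above, the 5 mice of this genotype lay close together in each state. In *Famin* p.254V the values were 180, 157, 171, 184 and 162 CPM in M0, then 542, 545, 537, 597 and 533 CPM in M1. In M2 they were 159, 168, 161, 183 and 173 CPM. In *Famin* p.284R they were 119, 108, 91.2, 169 and 160 CPM in M0, then 396, 263, 218, 584 and 553 CPM in M1, and 122, 56.8, 66.6, 200 and 175 CPM in M2.

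Over the 15 mice *Lacc1* had 162 ± 37.7 CPM in M0, 485 ± 110 CPM in M1 and 153 ± 40.4 CPM in M2 (SD, n = 15 each). M1 exceeded M0 in 15 of 15 mice, by 1.89-fold to 3.48-fold within a mouse (median 3.15-fold), and the log2 fold change was 1.59 (SE 0.13, adjusted p = 9.2e-14). Without the outlying M0 library it was 1.64. M2 differed from M0 by -0.08 (SE 0.13, 95% interval -0.34 to 0.19, adjusted p = 0.59), with 6 of 15 mice higher in M2, and by -0.02 without the outlying library. No M1 library was as low as the highest M2 library.

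**Figure D2:**
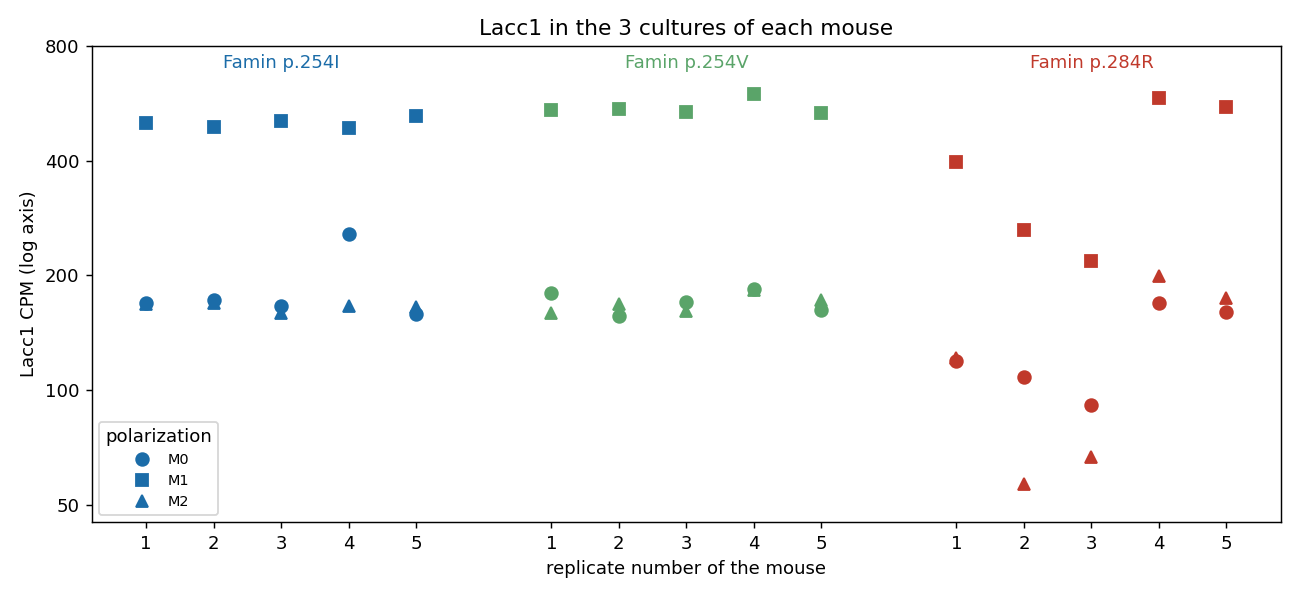
*Lacc1* CPM on a log axis for each of the 15 mice, ordered by genotype and replicate number, with circles for M0, squares for M1 and triangles for M2. Replicates 1 to 3 of *Famin* p.284R lie below the other mice in all 3 states, whereas replicates 4 and 5 lie among them, and the circle at 257 is the M0 library that stood apart.

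Within *Famin* p.284R the mice fell apart in *Lacc1*. In M0, M1 and M2 alike, replicates 1, 2 and 3 of this genotype were the 3 lowest of all 15 libraries. They had 51.4% to 67.2% of the mean of the 10 other mice in M0, 41.5% to 75.2% in M1 and 33.9% to 72.7% in M2. Replicates 4 and 5 had 95.2% and 90.3% of that mean in M0 and between 104% and 119% in M1 and M2. The highest of these 3 had 119 CPM in M0, 396 CPM in M1 and 122 CPM in M2, where the next library had 157, 486 and 159 CPM. The labels name no difference between these mice other than the number. Since the low mice were noticed after their values were seen, no test was made between them and the rest.

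No difference of *Famin* p.284R as a group from the other genotypes was called in *Lacc1*. The log2 difference from *Famin* p.254I was -0.51 (SE 0.23, adjusted p = 1) in M0, -0.32 (SE 0.23, adjusted p = 0.91) in M1 and -0.42 (SE 0.23, adjusted p = 1) in M2. Without the outlying M0 library the first of these was -0.36. With each mouse left out in turn the values lay between -0.62 and -0.36 in M0, between -0.50 and -0.16 in M1 and between -0.66 and -0.24 in M2. In M1 the smallest was without *Famin* p.284R replicate 3 and in M2 without replicate 2, and the largest in each state was without replicate 4. On counts summed per mouse it was -0.43 (SE 0.20, 95% interval -0.86 to 0.01, adjusted p = 1), and against *Famin* p.254V it was -0.48 (SE 0.20, 95% interval -0.91 to -0.04, unadjusted p = 0.034, adjusted p = 1). *Famin* p.254V and *Famin* p.254I differed by 0.05 per mouse (SE 0.20, 95% interval -0.38 to 0.49). In M1 the 5 libraries of *Famin* p.254V (533 to 597 CPM) all lay above the 5 of *Famin* p.254I (486 to 523 CPM), a log2 difference of 0.13 that was not called (adjusted p = 1), in a comparison with 0% of all genes called. The share of all genes whose libraries separate in this way was not counted. The SE within a polarization comes from all 9 groups and the SE per mouse from the 3 genotypes, so that each includes the spread among the *Famin* p.284R mice. With a mouse left out, the difference per mouse lay between -0.64 and -0.27 from *Famin* p.254I and between -0.69 and -0.33 from *Famin* p.254V, the smallest without *Famin* p.284R replicate 3 and the largest without replicate 4.

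*Ada* (chr2:163726584-163750239, minus strand), which deaminates adenosine and deoxyadenosine, had the lowest level of the 9 per kilobase in M0 and M2 and the largest rise in M1. It had 5.18 ± 0.645 CPM in M0 (4.11 to 6.70, median 5.25), 25.9 ± 4.93 CPM in M1 (17.2 to 33.6, median 25.1) and 3.26 ± 0.513 CPM in M2 (2.34 to 4.50, median 3.11). The lowest M1 library lay above the highest M0 library. The rise was 3.35-fold to 6.84-fold within a mouse, in 15 of 15 mice, and 2.32 on the log2 scale (SE 0.08, adjusted p = 1.9e-26). In M2 *Ada* fell in 15 of 15 mice, to a median of 0.615 of the M0 level, or -0.67 on the log2 scale (SE 0.09, adjusted p = 5e-09). The lowest count behind an M2 value was 58 reads.

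The 250 bases before the RefSeq start of *Ada* (GRCm38.p6, minus strand, chr2:163750240-163750489) are shown because *Ada* had the largest M1 increase of the 9 and its window was the only one of the 8 members with a RefSeq window to hold letters of an IFN-γ or NF-κB type element. The capitals mark, from left to right, the NF-κB letters GGGANNNTCC at -137 to -128 and the GAS letters TTCNNNGAA at -90 to -82 from the start, searched on both strands.
Ada upstream: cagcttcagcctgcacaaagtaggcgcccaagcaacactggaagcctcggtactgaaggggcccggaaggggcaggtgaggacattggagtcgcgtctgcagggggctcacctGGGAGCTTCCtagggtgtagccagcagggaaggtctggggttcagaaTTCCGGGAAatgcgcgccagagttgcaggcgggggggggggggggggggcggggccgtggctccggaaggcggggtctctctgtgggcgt

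Of 32851 RefSeq windows of this length, 7.02% held the GAS letters and 3.86% the NF-κB letters. STAT6 letters (TTCNNNNGAA, in 5.85% of windows) occurred in the windows of *Hprt* and *Mtap*, and ISRE core letters (GAAANNGAAA, in 2.98%) in none of them. The windows of *Lacc1*, *Adk*, *Aprt*, *Dck* and *Gda* held none of the 4 motifs, and *Xdh* had no entry. Annotated exons covered 250 of the 250 bases in the *Lacc1* window, 248 in that of *Mtap* and 185 in 1 window of *Adk*, against 0 in that of *Ada*. The letters found or absent in the windows of *Lacc1* and *Mtap* therefore mostly describe exon sequence. A match to letters is a description of the window and was not compared with binding.

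*Dck* (chr5:88764996-88783281, plus strand), which phosphorylates deoxycytidine and the purine deoxynucleosides, rose in M1 nearly as much as *Lacc1*. It had 97.5 ± 34.4 CPM in M0 (75.6 to 214, median 88.8), 267 ± 27.2 CPM in M1 (225 to 330, median 270) and 79.1 ± 12.7 CPM in M2 (59.0 to 111, median 77.1). The M0 maximum was the outlying *Famin* p.254I replicate 4, and the next highest M0 library had 118 CPM. M1 exceeded M0 in 15 of 15 mice, by 1.46 on the log2 scale (SE 0.10, adjusted p = 9.2e-17), or 1.58 (SE 0.07) without that library. The fall in M2 was -0.29 (SE 0.10, adjusted p = 0.0074) on the log2 scale and -0.17 (SE 0.07, adjusted p = 0.027) without it, so the library carried part of its size.

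*Adk* (chr14:21052574-21448569, plus strand), the kinase that returns adenosine to AMP, rose modestly in M1. It had 26.1 ± 1.88 CPM in M0 (22.1 to 30.1, median 26.1), 35.0 ± 4.20 CPM in M1 (26.3 to 42.1, median 36.3) and 24.9 ± 1.61 CPM in M2 (22.6 to 27.6, median 24.7). The log2 fold change in M1 was 0.42 (SE 0.04, adjusted p = 2.7e-11), with 14 of 15 mice higher. M2 differed from M0 by -0.07 (SE 0.04, adjusted p = 0.15), with an interval of -0.16 to 0.02.

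Among the phosphoribosyltransferases, *Hprt* (chrX:52988137-53021659, plus strand) moved in opposite directions in the polarized states and *Aprt* (chr8:122574635-122576909, minus strand) moved little. *Hprt* had 209 ± 24.9 CPM in M0 (157 to 251, median 208), 260 ± 23.6 CPM in M1 (214 to 294, median 258) and 141 ± 12.5 CPM in M2 (121 to 161, median 141). It rose by 0.31 in M1 (SE 0.05, adjusted p = 2.1e-06, higher in 13 of 15 mice) and fell by 0.57 in M2 (SE 0.05, adjusted p = 3.2e-12, lower in every mouse), on the log2 scale. Its M1 and M2 libraries did not overlap. *Aprt* had 106 ± 10.0 CPM in M0 (95.6 to 123, median 100.3), 97.7 ± 5.48 CPM in M1 (87.4 to 106, median 99.8) and 94.9 ± 10.4 CPM in M2 (77.5 to 118, median 92.8), and the 3 ranges overlapped. Its log2 fold changes were -0.12 in M1 (SE 0.05, adjusted p = 0.022) and -0.16 in M2 (SE 0.05, adjusted p = 0.002). The M1 call was lost without any 1 of 6 mice, *Famin* p.254I replicate 5, *Famin* p.254V replicates 4 and 5 or *Famin* p.284R replicates 3, 4 and 5 (adjusted p from 0.051 to 0.11, and 0.11 without *Famin* p.254I replicate 5, whose M1 library held *Arg1* and *Retnla*), and in M1 only 8 of 15 mice were below their own M0 culture.

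*Mtap* (chr4:89137122-89181081, plus strand), which splits methylthioadenosine from polyamine synthesis into adenine and methylthioribose-1-phosphate, rose in M2. It had 30.7 ± 4.69 CPM in M0 (25.6 to 40.3, median 29.9), 27.6 ± 2.21 CPM in M1 (23.7 to 32.4, median 27.8) and 41.1 ± 6.41 CPM in M2 (34.0 to 54.0, median 39.2). M2 exceeded M0 in 14 of 15 mice, by 0.42 on the log2 scale (SE 0.07, adjusted p = 1.9e-06), and every M2 library lay above every M1 library. The difference of M1 from M0 was -0.15 (SE 0.07, adjusted p = 0.05), just outside the threshold, and with the mouse as a block it was -0.15 at an adjusted p of 0.049, so that 9 members were called in M1 in place of 8. Without the outlying M0 library it was -0.17 and was called (adjusted p = 0.038). In all it was called under 8 of 21 alternatives, 4 of them among the 15 with a mouse left out (adjusted p from 0.038 to 0.16 over these 15).

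*Gda* (chr19:21391307-21473445, minus strand) and *Xdh* (chr17:73883895-73950196, minus strand), which lead guanine and hypoxanthine toward urate, moved apart in M2. *Gda* had 23.4 ± 2.25 CPM in M0 (20.03 to 28.9, median 23.0), 57.1 ± 12.6 CPM in M1 (46.0 to 91.0, median 53.6) and 190 ± 67.5 CPM in M2 (86.5 to 328, median 169). It rose in 15 of 15 mice in both polarized states. The log2 fold change was 2.998 in M2 (SE 0.12, adjusted p = 1.7e-23), with 3.78-fold to 14.8-fold within a mouse, and 1.27 in M1 (SE 0.12, adjusted p = 6.9e-13). The ranges of M0 and M1 did not overlap, while the lowest M2 library (86.5 CPM, *Famin* p.284R replicate 3) lay below the highest M1 library (91.0 CPM, the same mouse). *Xdh* had 459 ± 70.5 CPM in M0 (339 to 638, median 466), 387 ± 44.6 CPM in M1 (288 to 442, median 399) and 296 ± 87.1 CPM in M2 (175 to 526, median 305). It fell in M2 in 15 of 15 mice by 0.64 on the log2 scale (SE 0.11, adjusted p = 2.1e-06). The difference of M1 from M0 was -0.25 (SE 0.11, adjusted p = 0.039), and it was lost (-0.20, adjusted p = 0.091) without the outlying M0 library, which had the highest *Xdh* in M0. The M2 library of that mouse likewise had the highest *Xdh* in M2, 526 CPM against at most 353 CPM. The M1 difference was also lost without any 1 of 8 mice, *Famin* p.254I replicates 1 and 2, *Famin* p.254V replicates 1, 2 and 3 or *Famin* p.284R replicates 1, 2 and 5 (adjusted p from 0.051 to 0.11).

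**Figure D3:**
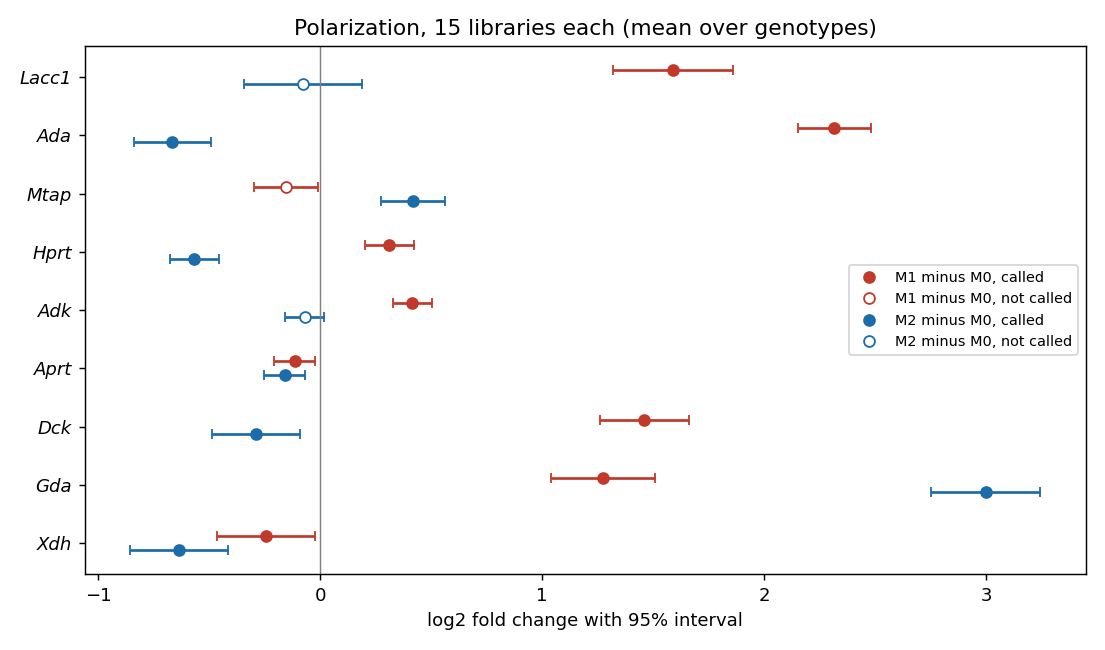
Log2 fold changes of M1 (red) and M2 (blue) against M0 for the 9 members, with 95% intervals over 15 libraries in each state, filled where the adjusted p was under 0.05. *Ada*, *Dck*, *Lacc1* and *Gda* lie above 1 in M1, *Gda* lies at 2.998 in M2, and *Ada*, *Hprt* and *Xdh* lie below -0.5 in M2.

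M1 and M2 compared directly gave 6 members higher in M1 (*Lacc1*, *Ada*, *Hprt*, *Adk*, *Dck* and *Xdh*), 2 lower (*Mtap* and *Gda*) and *Aprt* not called (0.04, SE 0.05, adjusted p = 0.38), beside 79.1% of all genes called (39% higher and 40.1% lower). The largest of these differences were in *Ada* (2.98, SE 0.09), *Dck* (1.75, SE 0.10), *Gda* (-1.72, SE 0.11) and *Lacc1* (1.67, SE 0.13), all on the log2 scale.

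The order of levels was compared per kilobase of the union of annotated exons, which the reads need not cover evenly. In M0 it ran from *Hprt* (162 ± 19.3 CPM per kb, SD, n = 15) through *Aprt* (65.6 ± 6.21), *Xdh* (50 ± 7.68), *Lacc1* (44.4 ± 10.4) and *Dck* (25.8 ± 9.09) to *Mtap* (9.52 ± 1.45), *Gda* (3.75 ± 0.361), *Adk* (3.07 ± 0.220) and *Ada* (2.59 ± 0.322). *Xdh* and *Lacc1* lay within a standard deviation of each other. In M1 *Lacc1* was second (133 ± 30.2 CPM per kb), behind *Hprt* (202 ± 18.3) and above *Dck* (70.5 ± 7.18), and *Ada* reached 13.0 ± 2.46. In M2 *Gda* reached 30.5 ± 10.8 CPM per kb, a level within the spread of *Xdh* (32.2 ± 9.49), with *Dck* at 20.9 ± 3.36, and *Lacc1*, behind *Hprt* and *Aprt*, was at 41.9 ± 11.1. The 9 members summed to 1119 ± 115 CPM in M0, 1642 ± 101 CPM in M1 and 1023 ± 147 CPM in M2.

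No member was called between genotypes by edgeR without a block. This held in M0, M1 and M2 for each of the 3 pairs of genotypes, for the 4 tests of whether the change from M0 differed from that of *Famin* p.254I, and on counts summed per mouse (13555 genes tested). Over all genes 0% were called in M0, in the interaction tests and per mouse. In M1, 0.263% were called for *Famin* p.284R minus p.254I, 0.0775% for p.284R minus p.254V and 0% for p.254V minus p.254I, and in M2 0.00775%, 0% and 0%. At an unadjusted p under 0.05 there were 1, 1 and 0 members in M0 for the pairs p.284R and p.254I, p.254V and p.254I, and p.284R and p.254V, against 2, 0 and 3 in M1 and 0, 1 and 1 in M2. Over all genes the shares under that p were 1.08%, 1.79% and 0.411% in M0. For the same pairs in the same order they were 6.70%, 0.930% and 6.19% in M1 and 1.15%, 2.55% and 2.40% in M2. The 2 members counted in M0 were *Lacc1* (unadjusted p = 0.031) and *Dck* (unadjusted p = 0.013), and without the outlying M0 library their unadjusted p-values were 0.13 and 0.49. DESeq2 and limma-voom also called 0 members in each of these comparisons.

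The members with the smallest p between genotypes in M1 were *Adk* and *Ada*, both lower in *Famin* p.284R. *Adk* in M1 had 36.7, 42.1, 32.6, 38.1 and 36.7 CPM in *Famin* p.254I, 37.7, 36.3, 36.1, 36.3 and 36.7 CPM in *Famin* p.254V, and 32.7, 38.1, 29.3, 29.0 and 26.3 CPM in *Famin* p.284R. Replicates 3, 4 and 5 of *Famin* p.284R were the 3 lowest of the 15. *Ada* in M1 had 28.1, 33.6, 23.8, 29.4 and 22.5 CPM in *Famin* p.254I, 29.7, 32.6, 29.0, 25.1 and 24.4 CPM in *Famin* p.254V, and 25.02, 30.0, 19.2, 19.6 and 17.2 CPM in *Famin* p.284R, and the same 3 mice were lowest. The log2 difference from *Famin* p.254I was -0.26 (SE 0.08, unadjusted p = 0.0013, adjusted p = 0.2) in *Adk* and -0.31 (SE 0.13, unadjusted p = 0.024, adjusted p = 0.63) in *Ada*.

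Libraries that share a replicate number deviated together in M1 across genotypes, and with the number as a block both genes were called. *Adk* then differed by -0.26 (SE 0.06, adjusted p = 0.019) from *Famin* p.254I and by -0.25 (SE 0.06, adjusted p = 0.031) from *Famin* p.254V. *Ada* differed by -0.32 (SE 0.09, adjusted p = 0.037) and -0.36 (SE 0.09, adjusted p = 0.019). These are 2 of 9 members, beside 2.66% and 2.52% of all genes called under the block. *Ada* and *Adk* varied together over the 15 M1 libraries with group means removed (r = 0.85, not tested), so the 2 calls are not separate results. *Ada* of *Famin* p.284R was below *Famin* p.254I in 5 of 5 numbers (0.666 to 0.893 of its level) and below *Famin* p.254V in 5 of 5, and *Adk* in 5 of 5 (0.717 to 0.906) and 4 of 5. On counts summed per mouse, the same block called neither gene (*Ada* adjusted p = 0.35 and 0.31, *Adk* adjusted p = 0.35 and 0.4). Without *Famin* p.284R replicate 2 and with no block, *Adk* was called as well (-0.34, adjusted p = 0.015, and -0.32, adjusted p = 0.037). In M0 and M2 the block called no member, and whether the difference in M1 exceeds that in M0 was not called for either gene.

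The summed M1 markers (*Nos2*, *Cxcl9*, *Il12b* and *Irf1*) were higher in the same *Famin* p.284R libraries. They ranged from 3012 to 6506 CPM in *Famin* p.284R (median 5942), against 2299 to 4741 CPM (median 4421) in *Famin* p.254I and 2680 to 4852 CPM (median 4288) in *Famin* p.254V. In M1, *Cxcl9* alone ranged from 979 to 5340 CPM, *Nos2* from 3.01 to 149 CPM and *Il12b* up to 0.190 CPM. The sum thus largely followed *Cxcl9*, and relations with single markers were not tested. Over the 15 M1 libraries, with genotype means removed, *Ada* was lower where the marker sum was higher (Pearson r = -0.833, permutation p = 0.00076, and Spearman rho = -0.754, permutation p = 0.0058). Its r was -0.685 without the 2 libraries farthest from the median of the marker sum. *Adk* did likewise (r = -0.771, permutation p = 0.0019; rho = -0.796, permutation p = 0.0035; r = -0.508 without 2 libraries). *Hprt* (r = -0.730, permutation p = 0.0077; rho = -0.636, permutation p = 0.04; r = -0.531 without 2 libraries) went the same way and *Xdh* (r = 0.750, permutation p = 0.007; rho = 0.496, permutation p = 0.1; r = 0.443 without 2 libraries) the opposite way, whereas *Lacc1* showed r = 0.259 (permutation p = 0.47; rho = 0.279, permutation p = 0.36). Of the 18 relations of a member with the markers of M1 or M2 computed, which were chosen after the values were seen, 5 had an adjusted p under 0.05 over the 18 (0.0068 for *Ada* and 0.011 for *Adk*). These permutations took the mice of a genotype as exchangeable, although M1 libraries with the same number deviated together, and replicate 2 had the lowest marker sum and the highest *Ada* in each genotype. With the means of the numbers also removed, r was -0.88 for *Ada*, -0.584 for *Adk*, -0.645 for *Hprt* and 0.365 for *Lacc1*, and it turned to -0.166 for *Xdh*. The part of the marker level in the genotype difference was not tested.

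*Gda* varied widely between mice in M2, together with the summed M2 markers (*Arg1*, *Retnla*, *Chil3* and *Mrc1*). Replicates 1 to 5 had 139, 115, 237, 123 and 164 CPM in *Famin* p.254I, 243, 328, 281, 169 and 170 CPM in *Famin* p.254V, and 247, 149, 86.5, 169 and 226 CPM in *Famin* p.284R. The ranges of the genotypes overlapped, and the 2 highest levels were those of replicates 2 and 3 of *Famin* p.254V. *Famin* p.254V exceeded p.254I in *Gda* by 0.61 on the log2 scale (SE 0.19, unadjusted p = 0.0029), which was not called (adjusted p = 1). Over the 15 M2 libraries with genotype means removed, *Gda* was higher where the summed M2 markers were higher (r = 0.934, permutation p = 9e-05; rho = 0.925, permutation p = 8e-05; adjusted p = 0.0016 over the 18 relations), and r was 0.911 without the 2 farthest libraries and 0.987 with the means of the numbers also removed. The sum is a CPM total, so that abundant markers weigh most in it. In M2, *Retnla* ranged from 1287 to 9295 CPM and *Arg1* from 705 to 1421 CPM. *Arg1* was highest in replicate 2 of each genotype (1404, 1421 and 1380 CPM in *Famin* p.254I, p.254V and p.284R), where *Gda* had 115, 328 and 149 CPM. Relations of *Gda* with single markers were not tested. The marker sum had a median of 10080 CPM in *Famin* p.254V, 6394 CPM in *Famin* p.254I and 7029 CPM in *Famin* p.284R, and its part in the difference of *Gda* was not tested.

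**Figure D4:**
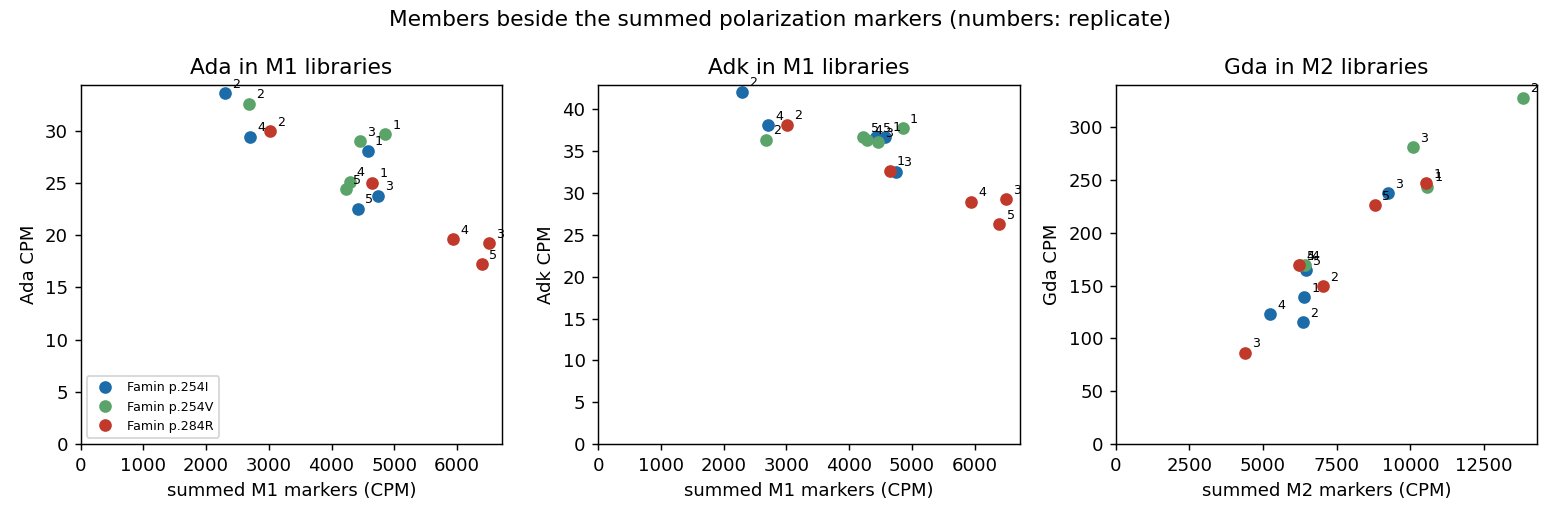
*Ada* and *Adk* CPM against the summed M1 markers in the 15 M1 libraries, and *Gda* CPM against the summed M2 markers in the 15 M2 libraries, on linear axes from 0, colored by genotype and numbered by replicate. Replicates 3, 4 and 5 of *Famin* p.284R have the highest M1 marker sums (5942 to 6506 CPM) and the lowest *Ada*, and *Gda* increases from 86.5 to 328 CPM along the M2 markers.

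Covariation of the members between mice was examined with polarization and genotype means removed, by averaging the M0, M1 and M2 deviations of each mouse. Of the 36 pairs, 3 had a permutation p under 0.05, and 1, *Mtap* with *Xdh*, had an adjusted p under 0.05 over the 36. *Mtap* and *Xdh* were opposed (r = -0.794, permutation p = 0.00044, adjusted p = 0.016; rho = -0.843, permutation p = 0.00041; n = 15 mice). The correlation was -0.674 without the 2 mice farthest from the median of *Mtap*, -0.756 in the 10 mice of *Famin* p.254I and *Famin* p.254V, and -0.895 once the means of the replicate numbers were also removed. Over 15 libraries it was -0.821 in M0, -0.682 in M1 and -0.892 in M2. *Mtap* and *Adk* varied together (r = 0.708, permutation p = 0.0087, adjusted p = 0.16; rho = 0.636, permutation p = 0.023; r = 0.571 without 2 mice), as did *Adk* and *Aprt* (r = 0.616, permutation p = 0.03, adjusted p = 0.36; rho = 0.454, permutation p = 0.11; r = 0.434 without 2 mice). With the number means removed these were 0.854 and 0.494.

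**Figure D5:**
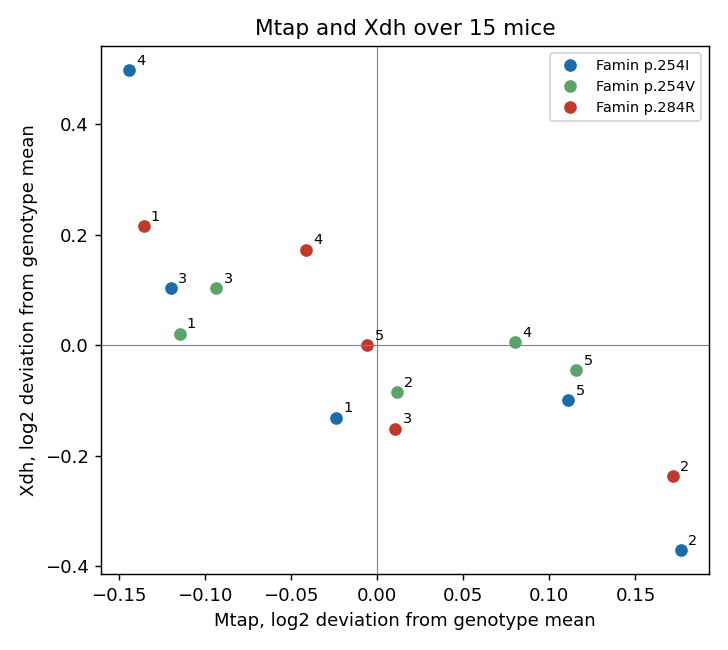
Log2 deviation of *Xdh* against that of *Mtap* from their genotype means, each the mean over M0, M1 and M2, for 15 mice colored by genotype and numbered by replicate. Mice with more *Mtap* had less *Xdh*, with r = -0.794.

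*Lacc1* showed no pair with a permutation p under 0.05. Its largest coefficient over the 15 mice was with *Xdh* (r = 0.472, permutation p = 0.061; rho = 0.557, permutation p = 0.082; r = 0.397 without 2 mice), and as *Famin* p.284R mice fall into separate levels, the value in the 10 other mice is r = 0.627 (permutation p = 0.14) with rho = 0.139. With *Ada*, *Hprt*, *Adk*, *Aprt* and *Dck* the coefficient over 15 mice lay between -0.239 and 0.135, and with *Mtap* and *Gda* it was -0.308 and 0.230. With the means of the replicate numbers also removed, the coefficients of *Lacc1* changed, to -0.742 with *Adk*, 0.69 with *Gda*, -0.543 with *Mtap* and 0.268 with *Xdh*, and the others lay between -0.442 and 0.113. Averaging over M0, M1 and M2 also hid signs that differed between the states. Over 15 libraries, r of *Lacc1* with *Hprt* was 0.316 in M0, -0.718 in M1 and 0.478 in M2. With *Mtap* it was -0.0298, 0.164 and -0.646, and with *Xdh* 0.311, 0.103 and 0.559. These values within a state were not tested. Whether the deviation of a mouse recurred between 2 of its cultures was examined by Pearson r in 27 relations over the 9 members and 15 mice. Of these, 4 had a permutation p under 0.05 and 0 an adjusted p under 0.05. The 4 were *Lacc1* in M0 with M1 (r = 0.744, adjusted p = 0.19) and in M1 with M2 (r = 0.961, adjusted p = 0.19), *Hprt* in M0 with M2 (r = 0.703, adjusted p = 0.13) and *Dck* in M0 with M1 (r = 0.654, adjusted p = 0.13). In the 10 mice of *Famin* p.254I and p.254V, the 2 values of *Lacc1* were -0.194 and 0.488.

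The genes most like *Lacc1* over the 45 libraries of log2 CPM were *Snhg8* (r = 0.895), *Angel1* (0.893), *BC028528* (0.893), *Tyk2* (0.890) and *Gm26510* (0.888), each highest in M1. With group means removed they were *Ap4m1* (0.605), *Kif5a* (0.600), *Psen2* (0.585), *Per1* (0.585) and *Ccdc28a* (0.585). *Gda* had the largest log2 difference of a member between polarizations (2.998 for M2 against M0), close to that of *Ada* (2.98 for M1 against M2), whereas in CPM *Lacc1* had the widest range. The genes most like *Gda* were *Tarm1* (0.970), *Pdcd1lg2* (0.969), *Ddx4* (0.969), *Plekhg1* (0.956) and *Tex9* (0.956), all highest in M2. With group means removed they included *Thrb* (0.841), *Scn3a* (0.779), *Gm15987* (0.768) and *Chil4* (0.762), and *Gm15987* averaged under 1 CPM in every state. These coefficients are over libraries that share mice and replicate numbers.

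Genes beside *Lacc1* on chromosome 14 moved in either direction in M1. *Ccdc122* overlaps *Lacc1* on the opposite strand, and whether the counting used strand is not stated, so that reads of the pair may not be separable, as with *Mtap* and *Gm12607* and with *Aprt* and *Gm20388*. *Adk* and *Xdh* overlap *Gm26372* and *CT025731.2* on the same strand, where use of strand would not separate reads. *Ccdc122* had 7.85 CPM in M0, 6.24 in M1 and 8.06 in M2, and fell by 0.33 in M1 on the log2 scale (adjusted p = 0.0045). Of the 5 nearest filtered genes at higher coordinates *Epsti1*, an interferon-induced gene 867335 bases away, rose most in M1 (1.17, adjusted p = 8.3e-16), and of the 5 at lower coordinates *Nufip1* rose (0.81, adjusted p = 1.9e-18) and *Tsc22d1* fell by 1.39 (adjusted p = 4.5e-19). With group means removed, the correlation of these 10 genes with *Lacc1* over 45 libraries lay between -0.345 (*Tsc22d1*) and 0.182 (*Dnajc15*). None of the 10 was called between genotypes, and their log2 differences of *Famin* p.284R from p.254I per mouse lay between -0.07 and 0.08.

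The wider purine pathway was described from 9 lists with 41 genes, of which 35 passed the filter. In M1 17 were higher and 15 lower than in M0, and in M2 21 were higher and 9 lower, beside the background of 77.3% and 76.4% of all genes. The median log2 fold change over the 35 was 0.10 in M1 and 0.23 in M2. None was called between genotypes. With the replicate number as a block, the genes called in M1 included *Gmpr* (-0.56, adjusted p = 0.022) for *Famin* p.284R minus p.254I and *Ak1* (-0.64, adjusted p = 0.048) for *Famin* p.284R minus p.254V.

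A list of further nucleoside enzymes held 3 tested genes. *Pnp2*, a purine nucleoside phosphorylase gene, rose from 1.44 to 8.74 CPM in M1 (log2 fold change 2.60, adjusted p = 3.5e-19) and fell to 0.689 CPM in M2 (-1.04, adjusted p = 1e-06). Its near-identical neighbor *Pnp* was not found by symbol among the counted genes, so the level of *Pnp* is not known. The level of *Pnp2* is uncertain, as it is not known how reads that match both were counted. *Dguok*, the mitochondrial deoxyguanosine kinase, fell in both states and *Adal* in M1.

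Genes of the purine nucleotide cycle, which returns IMP to AMP and AMP to IMP, differed between the states. In M1, *Adss* (-0.74), its muscle-type relative *Adssl1* (-1.67) and *Ampd3* (-0.82) fell and *Ampd2* (0.10) and *Adsl* (0.27) rose. In M2, *Ampd2* rose (1.36, from 34.5 to 88.6 CPM), as did *Adsl* (0.68) and *Adss* (0.11), while *Ampd3* fell (-1.56) and *Adssl1* was not called (-0.02, adjusted p = 0.85). *Ampd1* did not pass the filter (0.0281 CPM in M0).

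Among the adenylate kinases, *Ak1* (2.46, from 8.81 to 48.8 CPM) and *Ak4* (1.74, from 1.44 to 4.87 CPM) rose in M2. In M1, *Ak6* (0.34) rose and *Ak1* (-1.07) and *Ak3* (-0.38) fell. Of the 5 intracellular nucleotidases, which remove phosphate from nucleoside monophosphates, *Nt5c3* (1.91), *Nt5m* (1.503) and *Nt5c* (0.90) rose in M1 and *Nt5c2* (-0.20) and *Nt5c3b* (-0.60) fell. In M2, *Nt5c3*, *Nt5c2* and *Nt5c3b* fell and *Nt5m* (0.36) and *Nt5c* (0.08) rose.

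Of the 6 genes of guanine nucleotide steps, 4 rose in M1 and 5 in M2. *Guk1*, the guanylate kinase, rose in M1 (1.05), and *Gmpr*, a GMP reductase, fell there (-1.87) and rose in M2 (0.66). Of the 4 genes of phosphoribosyl pyrophosphate supply, the co-substrate of *Hprt* and *Aprt*, *Prps1* fell in M1 (-0.49) and rose in M2 (1.22). Of the 4 genes that return the product of *Mtap* to methionine, 3 rose in each state, with *Mri1* (0.83) and *Enoph1* (0.65) rising most in M2, where *Mtap* also rose. *Aox1*, which like *Xdh* is a molybdenum hydroxylase, fell in M1 (-0.82) and in M2 (-2.09) from 1.17 CPM, and *Uox* was near 0 in every state (at most 0.00742 CPM). The study places the product of *Fasn* in a complex with FAMIN and links that of *Acly* to the FAMIN-dependent purine nucleotide cycle. Both lipid synthesis genes rose in M2 (0.63 in *Fasn* and 0.37 in *Acly*), and in M1 *Fasn* fell (-0.28) and *Acly* rose (0.22).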

How the data were processed

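Poly(A) RNA of 45 macrophage cultures was measured (15 mice, 9 groups of 5, grouped by title). The authors deposited counts, whole reads per Ensembl gene without normalization, and CPM, which are those counts scaled to the total over its 11900 genes; it served for gene symbols. The study's methods give stranded mRNA libraries, Trim Galore and HISAT2 on mm10, the series text Cutadapt and STAR; counting tool, annotation and use of strand are not given in the sources used here. The 9 members and all lists were chosen with earlier results of these data known.

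The fits used edgeR 4.0.16 in R 4.3.3 (filterByExpr, TMM factors 0.939 to 1.10, robust glmQLFit of the 9 group means, no block; counts summed per mouse for genotype), limma 3.58.1 and DESeq2 1.42.0, with Benjamini-Hochberg adjustment over all genes. The scripts were tested on simulated data. Total counts were 17239009 to 43740283; a level of 1 CPM rests on 17.2 reads or more. Correlations used log2 CPM with a pseudocount of 1 and 100000 permutations of mice within genotype, two-sided. Lists, genes near *Lacc1* and the 5 genes most correlated with *Lacc1* and with *Gda* were named by rule, and some genes that the rule or the lists would name are not reported here; *Fcgr1*, *Cxcl9*, *Arg1*, *Retnla* and *Il12b* are from the marker lists, with *Fcgr1*, *Arg1* and *Retnla* singled out after their values were seen. Coordinates are from GENCODE M21 on mm10 (29081 of 29307 identifiers matched) and windows from RefSeq (8 of 9 members).

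Cultures with the same genotype and number were taken as 1 mouse, from the titles and the 5 mice per genotype in the series text, so the mouse block pairs the polarizations (deviations from group means correlated over 0.1 in 13, 15 and 10 of 15 mice for M0 with M1, M0 with M2 and M1 with M2, over 9522 genes). Libraries of different genotypes with the same number exceeded the same 0.1 for 15 of 15 pairs in M0 (0.122 to 0.864), 15 of 15 in M1 (0.283 to 0.871) and 13 of 15 in M2 (-0.419 to 0.784), so the numbers were taken to pair them in M0 and M1, although no source says what a number denotes. Alternatives were DESeq2 size factors, the DESeq2 Wald test, limma-voom, no filter, the blocks, the mean of the 3 within-polarization differences, exact permutation of mice, each mouse left out, and, chosen after seeing the data, the *Famin* p.254I replicate 4 M0 library left out.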

Additional observations from a re-analysis of the deposited data

Results flagged for a closer look

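A library was set apart where its gap to the nearest of the other 4 exceeded 0.710 of the range of its group of 5, which chance alone does in about 1 in 20 groups. Of 81 groups (9 genes in 9 groups), 6 had such a library. In *Famin* p.254I M0, replicate 4 had *Lacc1* at 257 CPM (others 159 to 172) and *Dck* at 214 CPM (others 75.6 to 107), and this is the library with high *Fcgr1*. In *Famin* p.254V M1, replicate 4 had *Lacc1* at 597 CPM (others 533 to 546). *Ada* was high in M2 in *Famin* p.254I replicate 4 (3.80 CPM, others 2.85 to 3.05) and *Famin* p.254V replicate 2 (4.50 CPM, others 3.04 to 3.16), the mouse with the highest *Gda* in M2. *Aprt* was high in *Famin* p.254I M0 replicate 5 (118 CPM, others 95.6 to 100.3). No member's change from M0 was called as different between genotypes in the interaction tests of edgeR. For the change to M1, 2 members in *Famin* p.284R and 0 in p.254V had an unadjusted p under 0.05 (2.76% and 0.86% of all genes). For the change to M2 these were 0 and 1 (0.542% and 1.29% of all genes). The low *Lacc1* of 3 of 5 *Famin* p.284R mice was not picked out, since no single library stood alone.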

How the results depend on the processing

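The M2 calls (7 members) and the M1 against M2 calls (8 members) had the same number under every alternative run, and M1 against M0 gave 6 to 9 members. With each mouse left out, members called ranged from 6 to 9 in M1 against M0, stayed at 7 and 8 in the other polarization comparisons, ranged from 0 to 1 for *Famin* p.284R against each other genotype in M1 (1 without *Famin* p.284R replicate 2, which was *Adk*) and stayed at 0 in the other genotype comparisons. The replicate block (number) called 2 members (*Ada* and *Adk*) in both M1 comparisons of *Famin* p.284R and changed no other genotype call, and the mouse block changed only *Mtap*. Gene counts moved more: *Famin* p.284R against *Famin* p.254I in M1 gave 34 genes, 343 with the block, 64 with DESeq2's Wald test, 11 with limma-voom and 0 to 109 with a mouse left out, and against *Famin* p.254V 10, then 325, 21, 0 and 0 to 65 (4 without the filter); other genotype comparisons gave at most 4 genes under any alternative. Pairs of members with a permutation p under 0.05 numbered 3, and 6 without the *Famin* p.284R mice. *Aprt* and *Xdh* in M1 lost their call without the filter (adjusted p = 0.059 and 0.073). Small uncalled *Lacc1* differences changed sign: *Famin* p.254V minus p.254I in M0 (-0.12, and -0.16 to 0.036 with a mouse left out) to 0.036 without *Famin* p.254I replicate 4 and 0.036 without its M0 library; the change from M0 to M2 of *Famin* p.284R against p.254I (0.091, up to 0.21 with a mouse left out) to -0.068 with limma-voom, -0.054 with the mouse block, -0.057 without *Famin* p.254I replicate 4, -0.031 without *Famin* p.284R replicate 4 and -0.058 without the M0 library; and that of *Famin* p.254V (0.14, up to 0.19) to -0.0043 and -0.0028. The causes were not tested. The shallowest values are those of *Ada* in M2, at 58 reads or more.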
